A study of Mus musculus with 7 samples.

Results

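Intermediate filaments are the rope-like cytoskeletal polymers whose protein subunits differ between cell types. The genes examined here are 10 of the 21937 genes in the authors' deposited comparison table, named by symbol: the epithelial keratins Krt8, Krt18 and Krt19, the filaments of dividing progenitors and mesenchyme Vim and Nes, and the neuronal filaments Ina, Nefl, Nefm, Nefh and Prph. All 10 were found, all 10 had a p-value and all 10 had a mean of at least 10 normalized reads over both groups. The study induced NeuroD1, a neuronal bHLH transcription factor, in mouse embryonic stem cells and asked whether a neuronal expression program begins. The cells were A2lox embryonic stem cells of 129/Ola background that carry a doxycycline-inducible Neurod1 transgene, grown with serum and LIF and taken off feeder cells before the experiment. The induced group was 2 polyA RNA libraries of cells given doxycycline at 500 ng/ml for 48 h, and the uninduced group was 2 such libraries of the same transgenic cells without the drug.

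Keratins assemble only as pairs of an acidic type I and a basic type II chain, and Krt8 with Krt18 is the first such pair made in the mouse embryo. Vimentin is a type III protein that forms filaments alone, and nestin joins vimentin filaments in neural progenitors. In neurons, alpha-internexin and peripherin tend to be made early, neurofilament light and medium chains follow, and the heavy chain comes late in axon maturation.

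After induction the epithelial keratins were lower, while vimentin, alpha-internexin, the neurofilament medium chain and peripherin were higher. Of the 10 genes 4 rose, 3 fell and 3 did not pass an adjusted p of 0.05 in the authors' deposited table, whose p-values come from DESeq with Benjamini-Hochberg adjustment over all genes. Over the 18283 genes with a p, 35.5% passed, with 19.1% higher and 16.4% lower. All 3 keratins fell, Vim rose while Nes did not pass, and 3 of the 5 neuronal filament genes rose. The median log2 fold change was -1.83 for the keratins and 1.31 for the neuronal filaments, beside a median log2 change of -0.0094 over all genes with a p.

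Values in the text are the authors' group means of normalized read counts, which carry no spread between libraries. As a rough error, the log2 fold change was divided by the normal deviate of its two-sided p, which gives the standard error that such a p would imply, and 95% intervals were made from it. These are approximations of the authors' count test and not measured spreads. The labels do not say whether libraries of one group were separate cultures, and the spread behind the p-values may be technical. Cells lacking the transgene were not given the drug in the RNA samples, and a response to doxycycline itself cannot be told apart from one to NeuroD1. In these mixed RNA samples, fewer cells of a type and less RNA per cell cannot be told apart. Neurod1 itself had a mean of 4371 in induced cells and 438 in uninduced cells, a 9.98-fold rise in the authors' deposited table (adjusted p = 4.5e-274), with transgene and endogenous reads not separated.

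**Figure D1:**
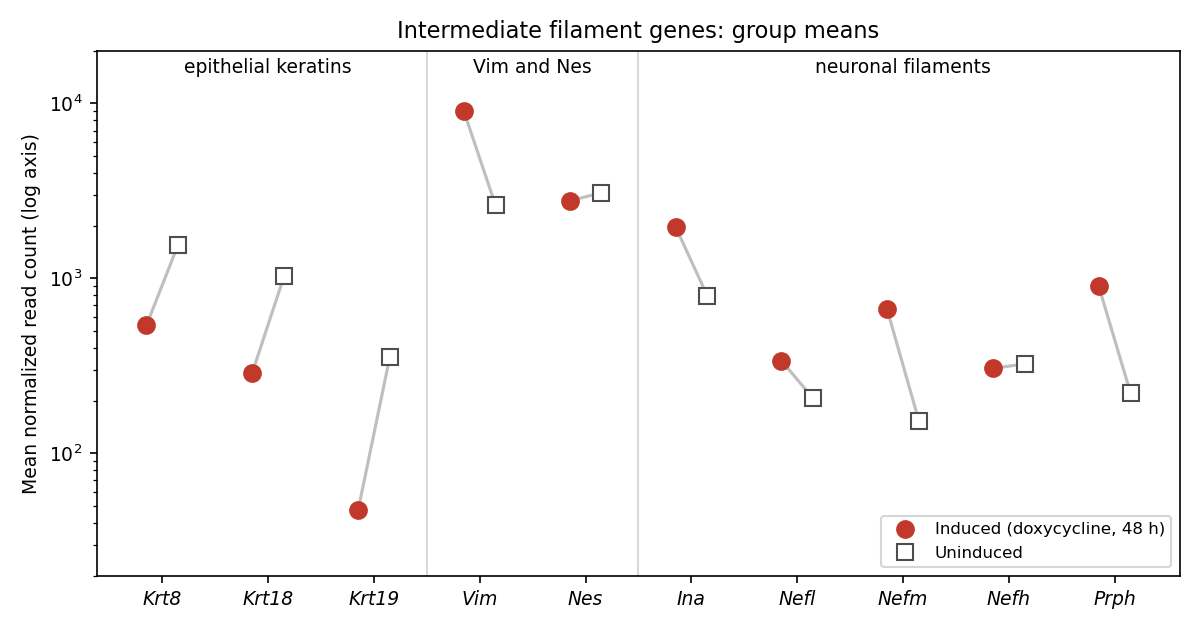
Mean normalized read count of each filament gene (log axis) in induced cells (filled circles) and uninduced cells (open squares), 1 mean of the authors per group. The 3 keratins lie lower in induced cells, Vim, Ina, Nefm and Prph lie higher, and Nes and Nefh have nearly level pairs.

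Krt8 encodes the type II keratin of simple epithelia. Its mean was 538 in induced cells and 1559 in uninduced cells. In the authors' deposited table Krt8 fell to 0.345 times its uninduced mean (adjusted p = 9.9e-06), with an implied 95% interval of 0.224 to 0.532. Krt18, its type I partner, had means of 288 in induced cells and 1025 in uninduced cells, and fell to 0.281 times the uninduced mean (adjusted p = 4.1e-09) in the authors' deposited table. Krt19, the type I keratin that lacks the usual tail domain, had the lowest fold change of the 10 genes. Its mean was 47.2 in induced cells and 355 in uninduced cells, 0.133-fold with adjusted p = 9.6e-13 in the authors' deposited table. Among the 14388 genes with a p and a mean of 10 or more, 0.104% had a lower ratio than Krt19, 1.17% a lower ratio than Krt18 and 2.27% a lower ratio than Krt8.

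Krt8 and Krt18 are neighbours on chromosome 15, transcribed away from each other, with no protein-coding gene between them in the RefSeq annotation of GRCm38.p6. The next protein-coding gene beyond Krt18 is Eif4b, a translation initiation factor gene, with means of 18182 in induced cells and 15693 in uninduced cells (adjusted p = 0.0062 in the authors' deposited table). On the other side of Krt8 lies Krt78, with a mean of 1.47 in induced cells and 1.86 in uninduced cells. Eif4b was 1.16-fold higher in the authors' deposited table, while both keratins of the pair fell. A Krt8 pseudogene lies on another chromosome, and how reads shared with it were counted is not given in the sources used here.

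The 250 bases before the transcript start are printed for the 6 genes that the RefSeq promoter table holds, because these genes moved in different directions and NeuroD1 is known to bind E-boxes of the form CANNTG. Capitals mark CANNTG, which reads the same on both strands, and TATAAA, searched on both strands, and the sequences run 5′ to 3′ on the gene's own strand in GRCm38.p6.
Krt8: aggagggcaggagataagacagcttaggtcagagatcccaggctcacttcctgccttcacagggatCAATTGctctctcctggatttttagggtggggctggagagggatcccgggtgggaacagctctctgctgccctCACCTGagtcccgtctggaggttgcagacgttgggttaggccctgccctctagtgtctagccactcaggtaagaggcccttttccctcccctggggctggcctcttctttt
Krt18: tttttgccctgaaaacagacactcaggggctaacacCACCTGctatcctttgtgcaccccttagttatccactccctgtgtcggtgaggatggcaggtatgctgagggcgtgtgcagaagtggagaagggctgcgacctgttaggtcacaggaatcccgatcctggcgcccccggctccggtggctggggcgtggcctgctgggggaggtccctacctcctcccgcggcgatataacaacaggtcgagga
Vim: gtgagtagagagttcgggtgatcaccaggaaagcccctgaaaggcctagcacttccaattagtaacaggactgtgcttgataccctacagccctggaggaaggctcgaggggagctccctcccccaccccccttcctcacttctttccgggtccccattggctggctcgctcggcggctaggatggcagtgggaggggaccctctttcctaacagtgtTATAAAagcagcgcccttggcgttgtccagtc
Nes: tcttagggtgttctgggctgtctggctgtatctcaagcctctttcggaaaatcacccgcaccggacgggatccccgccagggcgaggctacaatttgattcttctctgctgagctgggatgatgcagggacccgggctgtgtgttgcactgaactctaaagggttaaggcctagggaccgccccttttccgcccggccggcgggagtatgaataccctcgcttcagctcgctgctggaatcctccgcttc
Ina: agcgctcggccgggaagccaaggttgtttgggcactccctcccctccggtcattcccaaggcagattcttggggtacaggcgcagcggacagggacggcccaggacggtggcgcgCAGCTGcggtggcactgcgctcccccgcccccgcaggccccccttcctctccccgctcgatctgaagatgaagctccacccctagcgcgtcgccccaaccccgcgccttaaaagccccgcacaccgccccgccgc
Prph: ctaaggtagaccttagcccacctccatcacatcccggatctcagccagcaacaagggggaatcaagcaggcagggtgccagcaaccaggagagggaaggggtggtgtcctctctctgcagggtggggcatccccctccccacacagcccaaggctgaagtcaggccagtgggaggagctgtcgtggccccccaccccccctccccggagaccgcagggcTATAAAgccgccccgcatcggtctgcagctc

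These windows lie at chr15:102004343-102004592 on the minus strand for Krt8 and, on the plus strand, at chr15:102027966-102028215 for Krt18, chr2:13574061-13574310 for Vim, chr3:87970843-87971092 for Nes, chr19:47014431-47014680 for Ina and chr15:99054924-99055173 for Prph. The Krt8 window held CAATTG and CACCTG, ending 178 and 105 bases before the start, and the Krt18 window held CACCTG ending 208 bases before it. The Ina window held CAGCTG ending 129 bases before the start. The Vim, Nes and Prph windows held no CANNTG, whereas 66.1% of 27018 promoter windows, the first listed for each gene without ambiguous bases, held at least 1. The narrower word CAGATG, with its reverse complement CATCTG, was in none of the 6 windows and in 14.5% of all windows, and CAGCTG was in 12.8%. TATAAA ended 26 bases before the start of Vim and 25 bases before that of Prph, and was in 13.0% of all windows. A match describes the letters in the window and not a bound site, and binding data were not used here.

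Vimentin made up most of the gain in filament reads. The mean of Vim was 9019 in induced cells and 2612 in uninduced cells, a 3.45-fold rise in the authors' deposited table (adjusted p = 1.7e-103), with an implied 95% interval of 3.09 to 3.86. Over the 10 genes the means summed to 16854 in induced cells and 10339 in uninduced cells. Without Vim the sums were 7834 in induced cells and 7727 in uninduced cells. Of 14388 genes averaging at least 10 normalized reads, 98.4% had a lower induced mean than Vim and 89.6% a lower uninduced mean.

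Nestin, used as a marker of neural progenitors, did not pass the test. Its mean was 2775 in induced cells and 3087 in uninduced cells, 0.899-fold with adjusted p = 0.26 in the authors' deposited table. The implied 95% interval was 0.784 to 1.03. In uninduced cells Nes had the highest mean read count of the 10 genes, and in induced cells Vim did. Nes has 6.13 kb of exon and Vim 1.83 kb, so the order of their levels was also read per length. Per kb of exon, Vim was 10.9 times as abundant as Nes in induced cells and 2.83 times in uninduced cells.

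Alpha-internexin, the type IV filament that appears early in neurons, rose and was well detected in both groups. Ina had means of 1976 in induced cells and 796 in uninduced cells, a 2.48-fold rise in the authors' deposited table (adjusted p = 8.4e-17). Peripherin, a type III filament of motor, sensory and autonomic neurons, also rose. Prph had means of 900 in induced cells and 221 in uninduced cells, 4.07-fold in the authors' deposited table (adjusted p = 5.5e-56), with an implied 95% interval of 3.43 to 4.83.

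The neurofilament triplet gave a less uniform picture. Nefm, the medium chain, had means of 665 in induced cells and 153 in uninduced cells. It rose 4.34-fold in the authors' deposited table (adjusted p = 0.0092), with a wide implied 95% interval of 1.67 to 11.3. Nefl, the light chain that neurofilaments need in order to assemble, had means of 339 in induced cells and 206 in uninduced cells. Its ratio of 1.64 missed the threshold in the authors' deposited table (adjusted p = 0.19), with an implied 95% interval of 0.931 to 2.90. Nefh, the heavy chain, had means of 306 in induced cells and 325 in uninduced cells, 0.943-fold with adjusted p = 0.94 in the authors' deposited table, and an implied 95% interval of 0.624 to 1.42. Differences in change between the 3 chains were not tested.

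Nefl and Nefm are neighbours on chromosome 14 and are transcribed towards each other, with no protein-coding gene between them in the RefSeq annotation. Nefm and Nefh each overlap a long noncoding RNA gene on the opposite strand. Nefh also overlaps the start of Ap1b1 on the opposite strand, and Ina overlaps Nt5c2 in the same way. Ap1b1, an adaptor protein gene, had means of 1675 in induced cells and 1477 in uninduced cells (adjusted p = 0.095 in the authors' deposited table). Nt5c2, a nucleotidase gene, had means of 930 in induced cells and 901 in uninduced cells (adjusted p = 0.81 in the authors' deposited table). Whether the libraries kept strand is not given in the sources used here, so reads in these overlaps cannot be told apart.

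**Figure D2:**
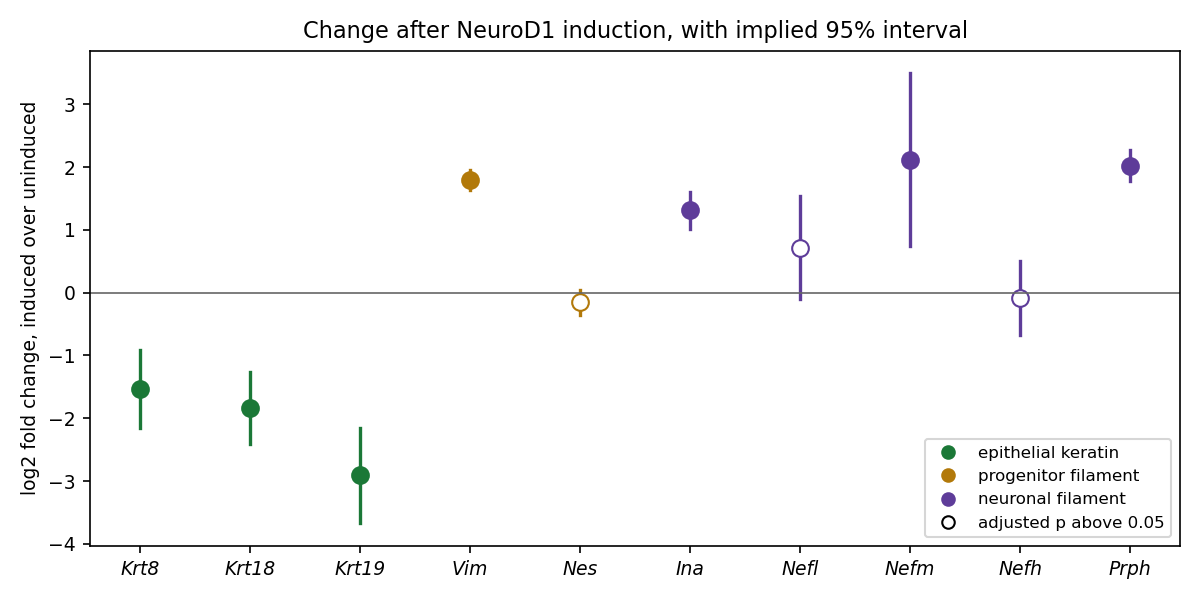
The authors' log2 fold change, induced over uninduced, of each filament gene, with the 95% interval implied by the authors' p (vertical lines) and open circles where the adjusted p was above 0.05. The keratin intervals lie below 0, those of Vim, Ina, Nefm and Prph above 0, and those of Nes, Nefl and Nefh cross 0.

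The width of these intervals differed between genes, also between some of similar level. The implied standard error of the log2 fold change was 0.082 for Vim and 0.10 for Nes, which had the highest induced means. It was 0.42 for Nefl and 0.39 for Krt19, at far lower levels. Prph and Nefm were closer in level, with means of 900 and 665 in induced cells and 221 and 153 in uninduced cells. Their implied standard errors were 0.13 for Prph and 0.70 for Nefm. The genes whose pair of group means was nearest to that of Nefl were Akna, Gulp1 and Fn3krp, at distances of 0.039, 0.048 and 0.063 on the log2 scale over the 2 group means. Akna had means of 334 in induced cells and 211 in uninduced cells, 1.58-fold in the authors' deposited table, and passed with adjusted p = 0.00016. Gulp1 and Fn3krp also passed in the authors' deposited table (adjusted p = 0.00015 for Gulp1 and 1.2e-05 for Fn3krp). The implied standard errors of these 3 genes were 0.16 each, against 0.42 for Nefl.

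The nearest genes to Krt8 were Prrg4, Kcnk5 and Fut9, at distances of 0.10, 0.12 and 0.12. Prrg4 had means of 508 in induced cells and 1622 in uninduced cells, 0.313-fold with adjusted p = 5.7e-59 in the authors' deposited table. The implied standard error of Prrg4 was 0.10, against 0.32 for Krt8. The nearest genes to Vim were farther away, at 0.39 for Fscn1, which encodes the actin-bundling protein fascin, 0.46 for Marcks, an actin-binding kinase substrate, and 0.50 for the DNA methyltransferase gene Dnmt3a. Marcks had means of 7070 in induced cells and 2129 in uninduced cells, 3.32-fold in the authors' deposited table (adjusted p = 1.9e-40). A list of nearest genes over 2 means shows similar level and change only.

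**Figure D3:**
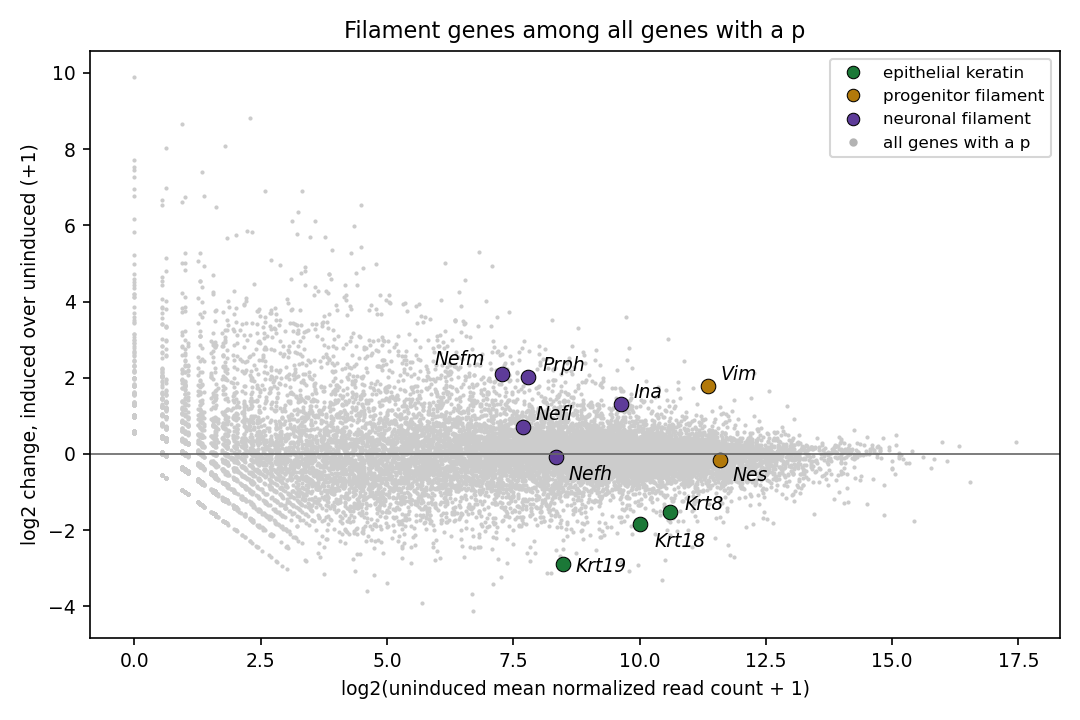
log2 change with a pseudocount of 1 (vertical axis) against log2 of the uninduced mean plus 1 (horizontal axis) for the 18283 genes with a p (grey) and the 10 filament genes (coloured by class). Krt19, with 0.104% of genes of mean 10 or more below it, lies near the lower edge, and Vim has a higher ratio than 95.3% of those genes.

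Counted per kb of exon, with lengths from the RefSeq transcripts of GRCm38.p6, the makeup of the filament transcripts shifted. Epithelial keratins made up 7.28% of the summed level per kb in induced cells and 42.7% in uninduced cells. Vim and Nes together made up 72.8% in induced cells and 44.6% in uninduced cells. Vim alone made up 66.6% of the sum over all 10 genes in induced cells and 32.9% in uninduced cells. The neuronal filaments made up 19.9% in induced cells and 12.8% in uninduced cells. Shares of a sum move with every member, and the Vim rise by itself lowers the share of all others. The summed level per kb was 7380 in induced cells and 4327 in uninduced cells, and without Vim 2462 in induced cells and 2903 in uninduced cells.

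The order of the genes per kb changed too. In induced cells it ran Vim, Ina, Prph, Nes, Krt8, Nefm, Krt18, Nefl, Nefh and Krt19, with levels per kb between 4918 for Vim and 33.3 for Krt19. In uninduced cells the order was Vim, Krt8, Krt18, Nes, Krt19, Ina, Prph, Nefh, Nefl and Nefm, with levels per kb between 1424 for Vim and 47.4 for Nefm. Nefm and Krt18 were level in induced cells at 206 per kb each, and Krt19 and Ina were close in uninduced cells at 251 and 244 per kb. The spread between libraries was not used, so neighbours in this order are not shown to differ.

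Ratios between partners, per kb, also differed between the groups. The type II keratin Krt8 stood at 1.25 times the sum of the type I keratins Krt18 and Krt19 per kb in induced cells and at 0.879 times in uninduced cells. The medium chain Nefm was at 2.05 times the light chain Nefl per kb in induced cells and 0.778 times in uninduced cells. Ina was above Nefl in both groups, 6.05 times in induced cells and 4.00 times in uninduced cells per kb. Nefh was at 0.763 times Nefl per kb in induced cells and 1.33 times in uninduced cells. These ratios carry no test.

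**Figure D4:**
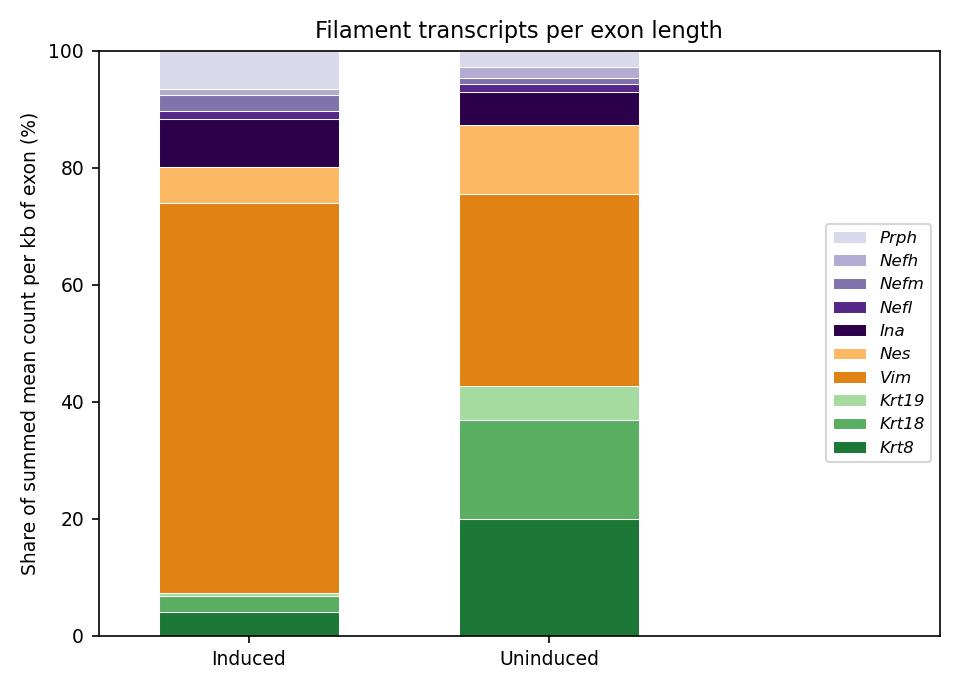
Share of each filament gene in the summed mean count per kb of exon (%), in induced cells (left) and uninduced cells (right). The keratins, in green, take 7.28% in induced cells and 42.7% in uninduced cells, and Vim, in dark orange, takes 66.6% in induced cells and 32.9% in uninduced cells.

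Other keratins were mostly near 0. Of 48 further keratin genes 16 were at 0 in both groups, and of the 32 with a p, 25 had both means below 10. Krt7, another type II keratin of simple epithelia, fell to 7.94 in induced cells, against 60.9 in uninduced cells (adjusted p = 5.4e-09 in the authors' deposited table). Krt42, a type I keratin, fell to 25.5 in induced cells, against 112 in uninduced cells (adjusted p = 1.5e-10 in the authors' deposited table). Krt17, a keratin of stratified and wounded epithelia, fell to 23.0 in induced cells, against 79.8 in uninduced cells (adjusted p = 2.8e-06 in the authors' deposited table). Krt12, known from the corneal epithelium, rose to 35.7 in induced cells, against 11.0 in uninduced cells (adjusted p = 0.0050 in the authors' deposited table). Together 3 of the 32 fell and 1 rose. Both counts lie under the shares over all genes with a p, 16.4% lower and 19.1% higher. The median log2 change was -0.19 over the 32 genes and -0.63 over the 6 with a mean of at least 10. The keratins of stratified epithelia Krt5 and Krt14 had means of 6.16 and 8.85 in induced cells and 4.93 and 10.2 in uninduced cells, with adjusted p = 1 for each in the authors' deposited table.

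Genes of proteins that hold filaments to junctions and to each other numbered 14, of which 9 were called lower and 0 higher (median log2 change -0.52). The shares over all genes with a p were 16.4% lower and 19.1% higher. This list was chosen with earlier results of these data known. Desmoplakin (Dsp), which ties keratins to desmosomes, fell to 664 in induced cells, against 3470 in uninduced cells (adjusted p = 1.3e-13 in the authors' deposited table). Epiplakin (Eppk1) fell to 91.2 in induced cells, against 345 in uninduced cells (adjusted p = 1.9e-24 in the authors' deposited table), and periplakin (Ppl) to 104 in induced cells, against 348 in uninduced cells (adjusted p = 2.9e-21 in the authors' deposited table). Fam83h, which acts on keratin organization, fell to 388 in induced cells, against 807 in uninduced cells (adjusted p = 7.2e-18 in the authors' deposited table). Plectin (Plec), a large linker, fell to 2240 in induced cells, against 4664 in uninduced cells (adjusted p = 2.0e-12 in the authors' deposited table). The large linkers Dst and Macf1, which have forms in neurons, did not pass, with ratios of 1.06 and 0.949 in the authors' deposited table (adjusted p = 0.38 for Dst and 0.46 for Macf1).

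Epithelial transcription factors and splicing regulators linked to keratin genes were mostly lower, with 9 of 14 called lower, 1 called higher and a median log2 change of -1.03. For comparison, 16.4% of all genes with a p were called lower and 19.1% higher. Earlier results of these data were known when this list was chosen, so it is no independent support for the keratin fall. Esrp1, an epithelial splicing regulator, fell to 503 in induced cells, against 1989 in uninduced cells (adjusted p = 1.5e-21 in the authors' deposited table). Tfap2c, listed as Tcfap2c, fell to 242 in induced cells, against 597 in uninduced cells (adjusted p = 1.8e-20 in the authors' deposited table). Klf5 fell to 272 in induced cells, against 602 in uninduced cells (adjusted p = 1.5e-16 in the authors' deposited table), and Elf3 to 110 in induced cells, against 287 in uninduced cells (adjusted p = 9.7e-13 in the authors' deposited table). Tfap2a, listed as Tcfap2a and also a neural crest factor, was the member called higher and had means of 59.9 in induced cells and 25.3 in uninduced cells (adjusted p = 0.0034 in the authors' deposited table).

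Among 16 genes of neurofilament transport, turnover and phosphorylation, 8 passed as higher and 1 as lower (median log2 change 0.42). Across all genes with a p, 19.1% passed as higher and 16.4% as lower. The kinesin heavy chain genes Kif5a and Kif5c, whose products carry neurofilaments along axons, rose, with ratios of 2.32 and 2.56 in the authors' deposited table (adjusted p = 1.1e-32 for Kif5a and 1.2e-08 for Kif5c), while the widely expressed Kif5b was at 0.900-fold (adjusted p = 0.10). Cdk5r1 and Cdk5r2, activators of the kinase Cdk5 that phosphorylates neurofilament tails, rose, with ratios of 6.04 and 4.51 in the authors' deposited table (adjusted p = 1.4e-13 for Cdk5r1 and 7.4e-14 for Cdk5r2). Cdk5 itself had means of 433 in induced cells and 364 in uninduced cells (adjusted p = 0.17 in the authors' deposited table). Gsk3b, another neurofilament kinase, rose 1.82-fold in the authors' deposited table (adjusted p = 2.7e-21). Trim2, a ubiquitin ligase for the light chain, was the member that fell, to 0.728-fold in the authors' deposited table (adjusted p = 0.0057).

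Of the other type III and type IV filaments and the lens filaments, 1 of 5 passed as higher and 0 as lower (median log2 change 0.27). The shares over all genes with a p were 19.1% higher and 16.4% lower, and this count is not read as a result. Synemin (Synm), a partner of vimentin and desmin, rose to 445 in induced cells, against 273 in uninduced cells (adjusted p = 3.1e-06 in the authors' deposited table). Desmin (Des), the muscle filament, had means of 265 in induced cells and 201 in uninduced cells (adjusted p = 0.052 in the authors' deposited table), and the astrocyte filament Gfap had means of 18.0 in induced cells and 14.8 in uninduced cells (adjusted p = 0.90 in the authors' deposited table). Lamins, the filaments of the nucleus, and their partners had 4 of 8 members lower and 0 higher (median log2 change -0.27). Lmna had means of 338 in induced cells and 437 in uninduced cells (adjusted p = 0.017 in the authors' deposited table), whereas Lmnb1 was at 1.07-fold and Lmnb2 at 0.886-fold there (adjusted p = 0.34 for Lmnb1 and 0.14 for Lmnb2). The lamin B receptor gene Lbr fell to 0.683-fold in the authors' deposited table (adjusted p = 7.2e-13), as did Lemd3 and Banf1, of the inner nuclear membrane and chromatin, to ratios of 0.622 and 0.723 there (adjusted p = 4.8e-10 for Lemd3 and 3.3e-08 for Banf1).

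**Figure D5:**
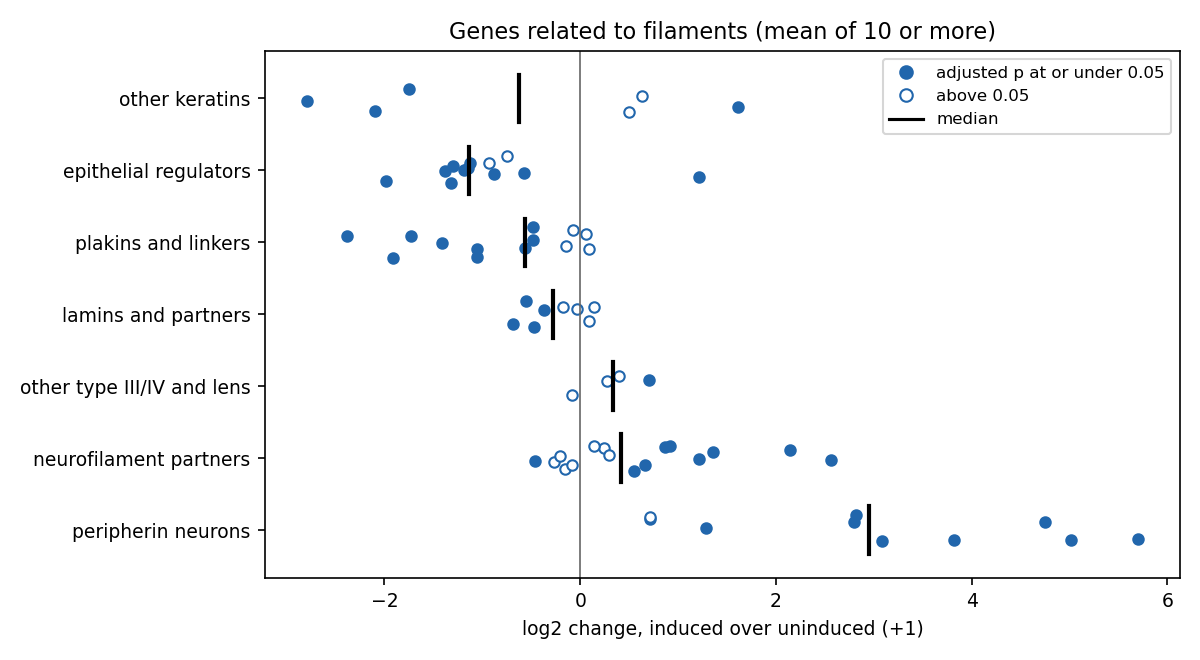
log2 change with a pseudocount of 1 of genes related to filaments, for list members with a mean of 10 or more, 1 point per gene, filled where the adjusted p was 0.05 or less, with the list median as a black bar. Most epithelial regulators and linkers lie left of 0, and neurofilament partners and genes of peripherin-using neurons lie mostly right of 0.

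Markers of cell types that use these filaments were measured beside them, in lists chosen with earlier results of these data known. The shares of all genes with a p that passed, to set beside the counts below, were 19.1% higher and 16.4% lower. Of 10 stem cell markers 8 passed as lower and 0 as higher (median log2 change -0.77), and their means summed to 39730 in induced cells and 70907 in uninduced cells. Tdgf1 and Esrrb fell to ratios of 0.421 and 0.457 in the authors' deposited table (adjusted p = 1.8e-58 for Tdgf1 and 3.1e-34 for Esrrb). Of 8 neuron markers 7 passed as higher and 0 as lower (median log2 change 2.17). Their means summed to 18498 in induced cells and 5126 in uninduced cells. Tubb3 made up most of the induced sum, with means of 10149 in induced cells and 845 in uninduced cells. Stmn2 made up most of the uninduced sum, with means of 4996 in induced cells and 3711 in uninduced cells, a ratio of 1.35. Mapt, the tau gene, had means of 77.9 in induced cells and 49.9 in uninduced cells (adjusted p = 0.22 in the authors' deposited table). Among 10 neural progenitor genes 7 were called higher and 1 lower (median log2 change 0.87). Fabp7, a fatty acid binding protein gene of radial glia, rose to 706 in induced cells, against 12.7 in uninduced cells (adjusted p = 2.1e-89 in the authors' deposited table). Hes5, a Notch target gene, rose to 225 in induced cells, against 9.40 in uninduced cells (adjusted p = 4.8e-47 in the authors' deposited table). Msi1, an RNA-binding protein of neural stem cells, and Sox1, an early neural transcription factor, had ratios of 2.56 and 2.04 in the authors' deposited table (adjusted p = 1.3e-27 for Msi1 and 4.7e-18 for Sox1). Gpr56, an adhesion receptor gene, fell, at 0.425-fold in the authors' deposited table (adjusted p = 2.5e-10).

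For the motor, sensory and autonomic neurons that use peripherin, 9 of 13 genes passed as higher and 0 as lower (median log2 change 2.80). Their summed means were 2197 in induced cells and 353 in uninduced cells. Of all genes with a p, 19.1% passed as higher and 16.4% as lower. The 4 list members that did not pass were Isl2, Mnx1, Phox2a and Tlx3. Which of these neuron types were present was not tested. Slc18a3, the vesicular acetylcholine transporter gene, rose to 249 in induced cells, against 34.4 in uninduced cells (adjusted p = 1.2e-31 in the authors' deposited table). Hand2, a transcription factor of autonomic neurons, rose to 63.5 in induced cells, against 1.00 in uninduced cells (adjusted p = 1.2e-16 in the authors' deposited table). The receptor gene Ret rose to 535 in induced cells, against 62.2 in uninduced cells (adjusted p = 1.7e-11 in the authors' deposited table).

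Fibroblasts, the feeder type, also make vimentin. Of 10 fibroblast markers 2 were called higher and 2 lower (median log2 change 0.45). Over all genes with a p, 19.1% were higher and 16.4% lower, so these counts are not read as a result about fibroblasts. The markers had summed means of 3317 in induced cells and 2646 in uninduced cells, and none was at 0 in both groups. Pdgfrb and Col3a1 had ratios of 2.50 and 1.83 in the authors' deposited table (adjusted p = 7.4e-12 for Pdgfrb and 0.0074 for Col3a1), and Thy1 and Dcn had ratios of 0.376 and 0.184 there (adjusted p = 7.2e-08 for Thy1 and 4.8e-07 for Dcn). Their part in the Vim result was not tested. Trophectoderm, which makes Krt8 and Krt18, was represented by 7 markers, of which 1 fell and 0 rose (median log2 change -0.53). The count that fell is near the 16.4% of all genes called lower. Summed means of the list were 322 in induced cells and 704 in uninduced cells. The member that fell, Tfap2c, also stands in the epithelial list and made up most of that sum, while Cdx2 had means of 4.85 in induced cells and 10.5 in uninduced cells and Elf5 was listed at 0 in induced cells and 1.07 in uninduced cells.

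Extraembryonic endoderm, which also makes these keratins, had 2 of 8 markers higher and 0 lower (median log2 change 0.32), with summed means of 779 in induced cells and 468 in uninduced cells. Dab2 and Gata4 were those that rose, with ratios of 1.96 and 1.93 in the authors' deposited table (adjusted p = 2.0e-11 for Dab2 and 0.0038 for Gata4), and Afp was listed at 0 in induced cells and 0.537 in uninduced cells. The part of both cell types in the keratin results was not tested. The astrocyte list had 1 of 5 markers lower and 0 higher, with summed means of 772 in induced cells and 1357 in uninduced cells. Its median log2 change was 0.27 over all 5 markers and -0.29 over the 3 with a mean of at least 10, so its sign turned with the genes near 0. Slc1a3, a glutamate transporter gene, had means of 658 in induced cells and 1233 in uninduced cells and fell to 0.534-fold in the authors' deposited table (adjusted p = 1.2e-17). The muscle list had 1 of 6 markers higher and 1 lower (median log2 change -0.37), with summed means of 382 in induced cells and 350 in uninduced cells. Across all genes with a p, 19.1% were higher and 16.4% lower. Counts of the endoderm, astrocyte and muscle lists are therefore not read as results about these cell types. The cardiac actin gene Actc1 rose 2.65-fold and Tnnt1 fell to 0.578-fold in the authors' deposited table (adjusted p = 2.9e-09 for Actc1 and 0.043 for Tnnt1).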

How the data were processed

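RNA was sequenced from 2 induced and 2 uninduced libraries, grouped by their titles, and the chromatin samples were not analysed here. Per the submitters' processing notes the tools were DESeq, HTSeq (0.5.4p1), FastQC (2.6.14), SAMtools (0.1.19) and TopHat2 (2.0.8) and the build mm9, with no role or order given. The authors' deposited table holds group means of normalized read counts (a signal that is never negative), the fold change as a ratio, its log2, and DESeq p-values and adjusted p-values. Checked at a relative tolerance of 1e-06, the ratio was induced over uninduced mean, and the adjusted p a Benjamini-Hochberg value over 18283 genes, in 100% of cases. Another 3654 genes had no p.

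Another 4 columns of per-library values match no sample label and enter no result, so no spread between libraries, library depth, limma fit or left-out library is given. The design had the limma fit as an alternative. The means do not give the depth, so no counting interval was computed.

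Changes for lists were log2 of the ratio of means with a pseudocount of 1, which understates low genes. The members and the 15 lists were chosen with earlier results of these data known. Named genes are the members, Neurod1, up to 4 called genes per list with the smallest adjusted p, genes against their list's direction, and the 3 nearest genes to Krt8, Vim and Nefl in log2 means. Further genes named were chosen after their values were seen, and some genes the rule picks are not reported here. Older symbols were matched through RefSeq synonyms. Promoters come from RefSeq, GRCm38.p6. The scripts were tested on simulated data. Python 3.11.15, numpy 2.4.6, pandas 2.3.3, scipy 1.17.1 and matplotlib 3.10.9 were used.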

Additional observations from a re-analysis of the deposited data

How the results depend on the processing

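The 4 rises and 3 falls among the 10 filament genes were also called at an adjusted p of 0.01, with a 2-fold minimum and with p adjusted again over genes with a mean of 10 or more. At 0.01 Nefm passed narrowly, with adjusted p = 0.0092 in the authors' deposited table. Each called member was already beyond 2-fold, and the new adjustment lowered its adjusted p, so neither of those settings was a strict test of the calls. A pseudocount added to both means cannot turn the direction of a ratio, so pseudocounts of 0.5 and 5 were no test of it. Bringing group means to equal totals shifted each log2 ratio by -0.0046, and to equal upper quartiles by -0.046. Such shifts could not turn the called genes either, whose smallest log2 fold change in size was 1.31, for Ina. Pseudocounts and scaling moved the ratio only, and no p was recomputed, so calls were not tested under them. Across all genes, requiring 2-fold lowered the counts to 1367 higher and 767 lower, from 3499 and 3000. At an adjusted p of 0.01 the muscle list had 0 genes lower in place of 1, the lamin list 3 in place of 4 (without Lmna) and the linker list 8 in place of 9 (without Evpl). Tests by limma and without single libraries were not run because the library columns were not used. No paired analysis was possible because the columns used carry group means and no replicate numbers. The approximate errors rest on the authors' p alone, and nothing here shows how far the libraries of a group differ for Nefm, Nefl or the keratins.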
